A study of Mus musculus with 6 samples.

Results

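The genes *Cdc123*, *Iars2*, *Hells*, *Ercc6l2*, *Ptgr2*, *Txn2*, *Pxmp4* and *Prkar1a* each hold an exon bin whose share of the gene's reads was far higher in hnRNP L deficient than in wt fetal liver (FL) cells. An exon bin is a piece of an exon that lies between neighbouring exon borders of the annotation. These 8 genes were chosen by name, from the strongest gains of exon bins measured in the same libraries, out of 10864 genes that had tested bins and did not overlap other genes in the counting (single-gene units). The values of those bins therefore chose the genes, and they are given as a description with no test. The bin of largest gain was taken in each gene among bins that averaged 10 reads or more, and it was also the bin with the smallest p-value in all 8 genes. The gene level was compared in addition, since it asks whether the gain of an exon went with lower expression of the gene.

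The Lin-cKit+ fraction of FL, rich in stem and progenitor cells of the blood, was sorted from C57BL/6 embryos at E14.5, with 1 embryo per library. The groups were 3 wt embryos, which a legend of the study calls hnRNP L fl/fl, and 3 VavCre+hnRNP L fl/fl embryos, labelled as knock-outs and called hnRNP L deficient here. The Vav promoter limits Cre to blood-forming cells, so other cells in a sort keep the gene. The libraries were stranded, made from mRNA and read from both ends. Gene counts were used from all 6 libraries. Exon bin counts were used from wt replicates 1 to 3 and hnRNP L deficient replicates 2 and 3, and those of the remaining hnRNP L deficient library, replicate 1, were not analysed here.

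hnRNP L is an RNA-binding protein that recognizes CA-rich stretches of pre-mRNA and can repress or activate the use of nearby exons. An exon that is normally skipped can carry a stop codon, and an mRNA that includes it can be degraded by nonsense-mediated decay. Other cryptic exons end in a polyadenylation site, and transcripts that use them stop before the rest of the gene.

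Reads on genes ranged from 55952160 to 76157226 per library, and reads on exon bins from 102176927 to 145043938. CPM are reads divided by the TMM-normalized library size, in counts per 1000000, and 3 reads on genes corresponded to between 0.0402 and 0.0540 CPM. *Hnrnpl* stood at 552, 531 and 527 CPM in wt and at 242, 288 and 269 CPM in hnRNP L deficient libraries, so that the level was 49.7% of wt (log2 fold change -1.01, SE 0.09, adjusted p = 0.0072). The summed level of the progenitor markers *Kit*, *Cd34*, *Gata2*, *Myb* and *Cd93* was 1034 to 1459 CPM in wt and 829 to 941 CPM in hnRNP L deficient libraries. Most of this sum was *Kit* and *Myb*, and the markers differed. *Cd34* stood at 94.7, 234 and 123 CPM in wt and at 28.5, 35.0 and 34.0 CPM in hnRNP L deficient libraries. *Cd93* stood at 32.7, 85.7 and 54.5 CPM against 9.86, 11.0 and 8.12 CPM. *Kit* was also lower in all hnRNP L deficient libraries, while *Gata2* and *Myb* overlapped between the groups. The summed level of 8 markers of T, B, NK and myeloid cells was 6.64 to 49.5 CPM in wt, highest in wt replicate 2, and 2.64 to 11.3 CPM in hnRNP L deficient libraries. Most of this sum was *Itgam*, at 6.05, 47.4 and 9.60 CPM in wt and 2.24, 10.1 and 10.7 CPM in hnRNP L deficient libraries. The study left the antibody against its product, CD11b, out of the lineage cocktail for FL cells. *Ncr1*, which marks NK cells, was at 0 in all 6 libraries. The 3 late erythroid markers summed to 290 to 436 CPM in wt and to 136 to 382 CPM in hnRNP L deficient libraries, and the hepatocyte markers *Alb*, *Afp* and *Ttr* to 99.1 to 212 CPM and 19.3 to 65.1 CPM. The part of these cells in the gene levels below was not tested, and in bulk libraries fewer cells of a type and less RNA per cell cannot be told apart.

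The gained bins were placed on the GENCODE M21 annotation of GRCm38 in *Cdc123*, *Iars2*, *Hells*, *Ptgr2*, *Pxmp4* and *Prkar1a*, the 6 genes in which this annotation gives as many bins as the deposited counts. In *Ercc6l2* and *Txn2* the numbers of bins differ, and bins are given by number and strand alone. In 4 of the 6 placed genes the gained bin carries the end of an annotated reading frame. The coding part of each of these bins is shown first because it is the sequence that ends the protein early. Bases are read 5′ to 3′ on the transcript strand, and the stop codon is in capitals.
Cdc123 bin 12 (chr2:5809923-5810018, minus strand): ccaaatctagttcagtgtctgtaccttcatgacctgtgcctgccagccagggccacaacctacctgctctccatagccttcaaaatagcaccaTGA
Iars2 bin 15 (chr1:185312485-185312527, minus strand): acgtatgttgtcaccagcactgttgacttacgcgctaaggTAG
Pxmp4 bin 3 (chr2:154595468-154595570, minus strand): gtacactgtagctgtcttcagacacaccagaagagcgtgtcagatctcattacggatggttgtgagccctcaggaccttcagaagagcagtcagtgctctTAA
Ptgr2 bin 13 (chr12:84296228-84296242, plus strand): ctcctgaccactTGA

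Bin 12 of *Cdc123* spans 464 bases (chr2:5809555-5810018) and is the last of 6 exons of the short protein-coding transcript Cdc123-204, with 93 coding bases. The annotated coding sequence of Cdc123-204 has 401 bases, which is not a multiple of 3. This transcript also lacks the most 5′ bins of the gene, 24 to 28, so its frame is not given in codons. Bin 12 lies in an intron of the reference transcript Cdc123-201, after exon 7 of 13. Bin 15 of *Iars2* spans 682 bases (chr1:185311846-185312527) and is the last of 13 exons of Iars2-202, whose reading frame holds 560 codons against 1012 in Iars2-201. It lies after exon 12 of the 23 exons of Iars2-201. Bin 3 of *Pxmp4* spans 325 bases (chr2:154595246-154595570) and is the last of 3 exons of Pxmp4-202, with 92 codons against 212 in Pxmp4-201, and lies after exon 2 of 4. In these 3 genes the gained bin is thus an annotated alternative last exon inside an intron of the longer transcript. Bin 13 of *Ptgr2* is an internal exon of 129 bases (chr12:84296228-84296356) that follows exon 3 of the 10 exons of Ptgr2-201. It is held by Ptgr2-202, a transcript annotated as a target of nonsense-mediated decay with 56 codons against 351, and by the retained-intron transcript Ptgr2-206. Its length is a multiple of 3, so that the stop codon inside it, and not a shift of frame, ends the reading.

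The gained bins of the other 2 placed genes hold no coding sequence. Bin 8 of *Hells* spans the last 906 bases (chr19:38934508-38935413) of the intron after exon 2 of the 22 exons of Hells-201. It is the first of 4 exons of Hells-203, a transcript annotated as a retained intron, which alone holds it. It runs into the next exon without a gap, which is shown by the last 60 bases of the bin in lower case and the first 30 bases of the exon in capitals (chr19:38935354-38935443, plus strand), because the pyrimidine-rich stretch and the final ag before the capitals form the 3′ splice site of that exon.
Hells bin 8 and start of bin 9: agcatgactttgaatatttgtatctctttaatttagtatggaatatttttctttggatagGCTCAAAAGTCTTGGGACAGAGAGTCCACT
Bins 1, 2 and 3 of *Prkar1a* (chr11:109649405-109649527, chr11:109650441-109650574 and chr11:109650575-109650624) are non-coding 5′ exons of Prkar1a-202, Prkar1a-203 and Prkar1a-204, upstream of bin 4 (chr11:109650921-109651073), the first exon of Prkar1a-201. The reading frames of Prkar1a-203 and Prkar1a-201 both hold 381 codons. RefSeq (GRCm38.p6) lists 6 promoters of *Prkar1a*, and the one whose start is nearest bin 1, at a distance of 42 bases, is shown because reads appeared on that bin in the hnRNP L deficient libraries (chr11:109649113-109649412, plus strand, 250 bases before the start in lower case and 50 bases from it in capitals).
Prkar1a upstream promoter: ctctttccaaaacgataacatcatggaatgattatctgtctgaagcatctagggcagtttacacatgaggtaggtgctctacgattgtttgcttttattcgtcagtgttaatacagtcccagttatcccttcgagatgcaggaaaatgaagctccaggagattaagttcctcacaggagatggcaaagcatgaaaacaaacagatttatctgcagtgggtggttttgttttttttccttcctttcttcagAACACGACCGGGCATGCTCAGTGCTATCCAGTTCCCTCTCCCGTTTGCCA
It holds 7 CG dinucleotides and 43.3% G and C. The promoter whose start is nearest bin 4 holds 25 CG dinucleotides and 62.7% G and C, and the median over 32544 RefSeq promoters of mouse is 7 and 53%.

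The letters ACACAC, a short form of the CA repeats that hnRNP L binds, were searched in the 6 placed gained bins on both strands, with overlaps between matches not counted. They were found on the transcript strand in 1 bin, that of *Pxmp4*, and on the other strand in none. Among all placed and tested bins within 20% of the same length, between 2.74% (for the length of the *Ptgr2* bin) and 25.2% (for that of the *Hells* bin) held the letters on the transcript strand and between 3.42% and 35.0% on the other. For the length of the *Pxmp4* bin the shares were 7.81% and 11.4% of 4236 bins. Intron sequence beside the bins was not analysed here.

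The gain was described in each library by the share of all reads on the gene's bins that fell on the gained bin, and by the log2 usage change, the fitted change of a bin relative to the other bins of its gene. Of the 201 bins of the 8 genes, 179 passed the minimum of 10 reads. Of these, 12 were called gained and 1 was called lost at p under 0.01 and over 2-fold, the limits stated in the study. The p-values of bins were not adjusted for the number of bins tested here, and this holds for all bins called gained or lost below. Over all 176996 tested bins 0.156% were called gained and 0.0932% lost, and nothing is read from the members' counts because the same contrast chose them. The share of the gained bin was higher in both hnRNP L deficient libraries than in all 3 wt libraries in 8 of 8 genes, as it was for 12.1% of all tested bins.

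*Cdc123* encodes an assembly factor of the translation initiation factor eIF2. Bin 12 held 162, 175 and 173 reads in wt and 966 and 1322 reads in hnRNP L deficient replicates 2 and 3, or 0.710%, 0.782% and 0.626% of the gene's reads against 4.56% and 5.32% (log2 usage change 2.81). The bin itself was 5.68-fold higher in CPM, while the sum of all other bins stood at a log2 ratio of -0.36. Per base, the bin reached 2.30% to 2.36% of the median bin of the reference transcript in wt and 17.8% and 22.9% in hnRNP L deficient libraries. A read can count on every bin that it touches, so that short bins are overstated per base. The neighbouring bin 11 stood at -0.46 in log2 usage, and the other neighbour, bin 13, was below the read minimum with 1 to 12 reads.

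*Iars2* encodes the mitochondrial isoleucyl-tRNA synthetase. Bin 15 held 73, 91 and 74 reads in wt and 420 and 448 reads in hnRNP L deficient libraries, and its share was 0.266%, 0.379% and 0.199% against 2.02% and 1.89% (log2 usage change 2.83). Its neighbours stood at -0.22 (bin 14, on the 3′ side) and 0.32 (bin 16, on the 5′ side). The gene held 3 further gained bins, 20, 22 and 24, all of them parts of introns that only the retained-intron transcript Iars2-205 holds. Bin 20 had 53, 61 and 109 reads in wt and 155 and 146 in hnRNP L deficient libraries (log2 usage change 1.46). Bin 22 had 8, 10 and 23 reads against 50 and 59 (2.44), and bin 24 had 7, 2 and 12 reads against 33 and 28 (2.57). Bin 24 passed the read minimum only through the hnRNP L deficient libraries. Bins 26 and 28, also held only by Iars2-205, were below it. They had 0, 0 and 0 reads in wt against 0 and 1, and 0, 1 and 7 against 9 and 5. Some intron parts on the 5′ side of the early last exon thus held more reads, and the same contrast picked them.

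*Pxmp4* encodes a membrane protein of peroxisomes. Bin 3 held 50, 61 and 76 reads in wt and 182 and 285 in hnRNP L deficient libraries, and its share was 5.09%, 3.30% and 4.32% against 22.5% and 27.9% (log2 usage change 2.64). This was the highest share among the 8 genes. Per base the bin reached 15.8% to 25.3% of the median reference bin in wt and 96.8% and 116% in hnRNP L deficient libraries. In the latter it was thus covered about as densely as the median of 4 reference bins. The bin itself was 3.20-fold higher in CPM, while the sum of the bins on its 3′ side stood at a log2 ratio of -1.94. The relative density therefore reflects lower reference exons as well as the gain. The first neighbour on the 3′ side, bin 2, stood at -0.76 in log2 usage and the neighbour on the 5′ side, bin 4, at 0.89. The last bin of the gene, bin 1, was the only bin called lost among the 8 genes, with 599, 1159 and 1080 reads in wt and 280 and 266 in hnRNP L deficient libraries.

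*Ercc6l2* encodes a SNF2-type helicase that is tied to DNA repair and to inherited bone marrow failure. Bin 10 held 127, 98 and 271 reads in wt and 569 and 712 in hnRNP L deficient libraries, with shares of 1.77%, 1.75% and 3.13% against 8.89% and 9.35% (log2 usage change 2.03). Of the wt libraries, replicate 3 was the highest, and both hnRNP L deficient libraries were still above it. The neighbours were bin 9 (0.40) and bin 11 (0.61).

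*Ptgr2* encodes a prostaglandin reductase. Bin 13 held 26, 14 and 20 reads in wt and 149 and 208 in hnRNP L deficient libraries, and its share was 0.300%, 0.194% and 0.220% against 2.14% and 2.501%, the largest log2 usage change of the 8 (3.26). Its neighbours, exons of all long transcripts, stood at -0.26 (bin 12) and -0.03 (bin 14). Per base, the exon reached 3.41% to 4.47% of the median reference bin in wt and 33.5% and 37.3% in hnRNP L deficient libraries. Its length is close to the median of 133 bases of the reference bins.

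*Txn2* encodes the mitochondrial thioredoxin. Bin 12 held 62, 26 and 44 reads in wt and 296 and 400 in hnRNP L deficient libraries, or 0.186%, 0.0771% and 0.103% of the gene's reads against 0.631% and 0.706% (log2 usage change 2.45). Its neighbours stood at -0.07 (bin 11) and -0.01 (bin 13). Bins 9 and 10, also of low coverage, stood at 1.06 and 0.72 and were not called. The gained bin of *Txn2* was thus a small part of a gene whose other bins also held more reads, with a log2 ratio of 0.27 for their sum.

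*Hells* encodes a SNF2-type chromatin remodeler needed for DNA methylation. Bin 8 held 32, 23 and 40 reads in wt and 329 and 417 in hnRNP L deficient libraries, and its share was 0.113%, 0.0916% and 0.150% against 0.981% and 1.09% (log2 usage change 3.15). The neighbours were bin 7 (0.07) and bin 9 (-0.06), both exons of the reference transcript. Per base the bin reached at most 0.493% of the median reference bin in wt and 3.30% and 3.67% in hnRNP L deficient libraries. Although 10.2-fold higher in CPM, the intron stretch therefore stayed a minor part of the *Hells* reads.

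*Prkar1a* encodes the type I alpha regulatory subunit of protein kinase A (PKA). Bin 2 held 13, 15 and 20 reads in wt and 73 and 79 in hnRNP L deficient libraries, with shares of 0.0456%, 0.0464% and 0.0516% against 0.211% and 0.195% (log2 usage change 2.08). Bin 3 held 20, 20 and 38 reads against 74 and 84 (1.46), and bin 1, below the read minimum, held 0 reads in all 3 wt libraries against 14 and 12. Bin 4, the first exon of the reference transcript, held 882, 836 and 1324 reads against 1092 and 1314 (0.09). Bins 1 to 3 together thus made up 3.61%, 4.02% and 4.197% of the reads on the first 4 bins in wt and 12.8% and 11.8% in hnRNP L deficient libraries, while every bin from 4 onward lay between -0.29 and 0.30 in log2 usage. Among the bins of the 8 genes, the gained calls of smallest size were Prkar1a bin 3 and Iars2 bin 20, both at 1.46, and the largest positive change not called was Ptgr2 bin 3 at 1.13.

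**Figure D1:**
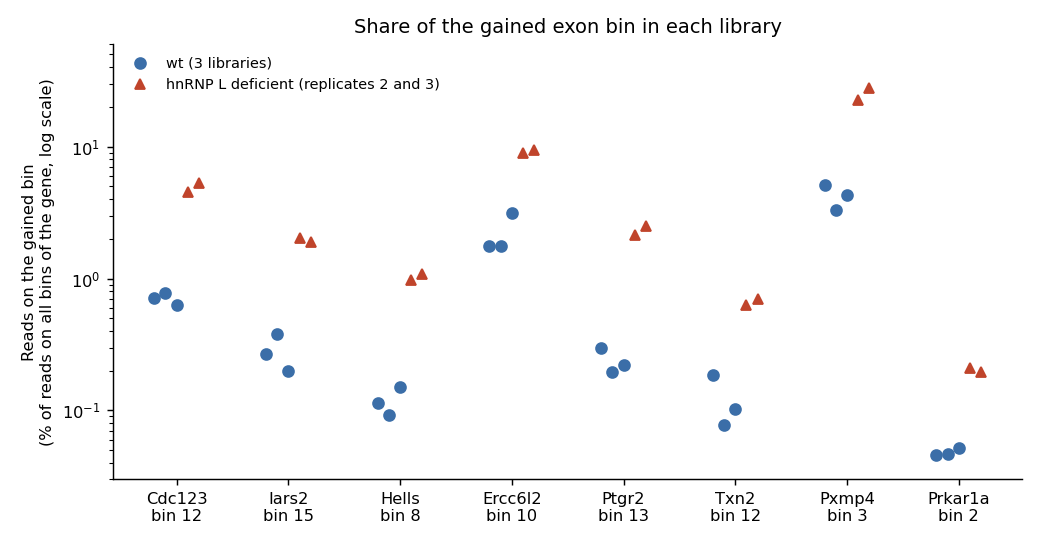
Share of all reads on the bins of a gene that fell on its gained bin (percent, log axis), with 1 point per library for 3 wt libraries (circles) and hnRNP L deficient replicates 2 and 3 (triangles). In each of the 8 genes, chosen for this difference, both triangles lie above all circles, from 0.0456% to 0.211% in Prkar1a wt replicate 1 and deficient replicate 2 up to 27.9% in Pxmp4.

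The profile of all tested bins showed 2 kinds of genes. In *Cdc123*, *Iars2*, *Pxmp4* and *Ercc6l2*, the bins on the 3′ side of the gained bin were lower relative to those on the 5′ side, and in *Hells*, *Ptgr2*, *Txn2* and *Prkar1a* the gained bin stood as a peak or a start without a large step. The reads on all bins 3′ of the gained bin were divided by the reads on all bins 5′ of it. This ratio was chosen after the values were seen, and it was computed for the 7 genes with at least 2 tested bins on each side, which leaves out *Prkar1a*.

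**Figure D2:**
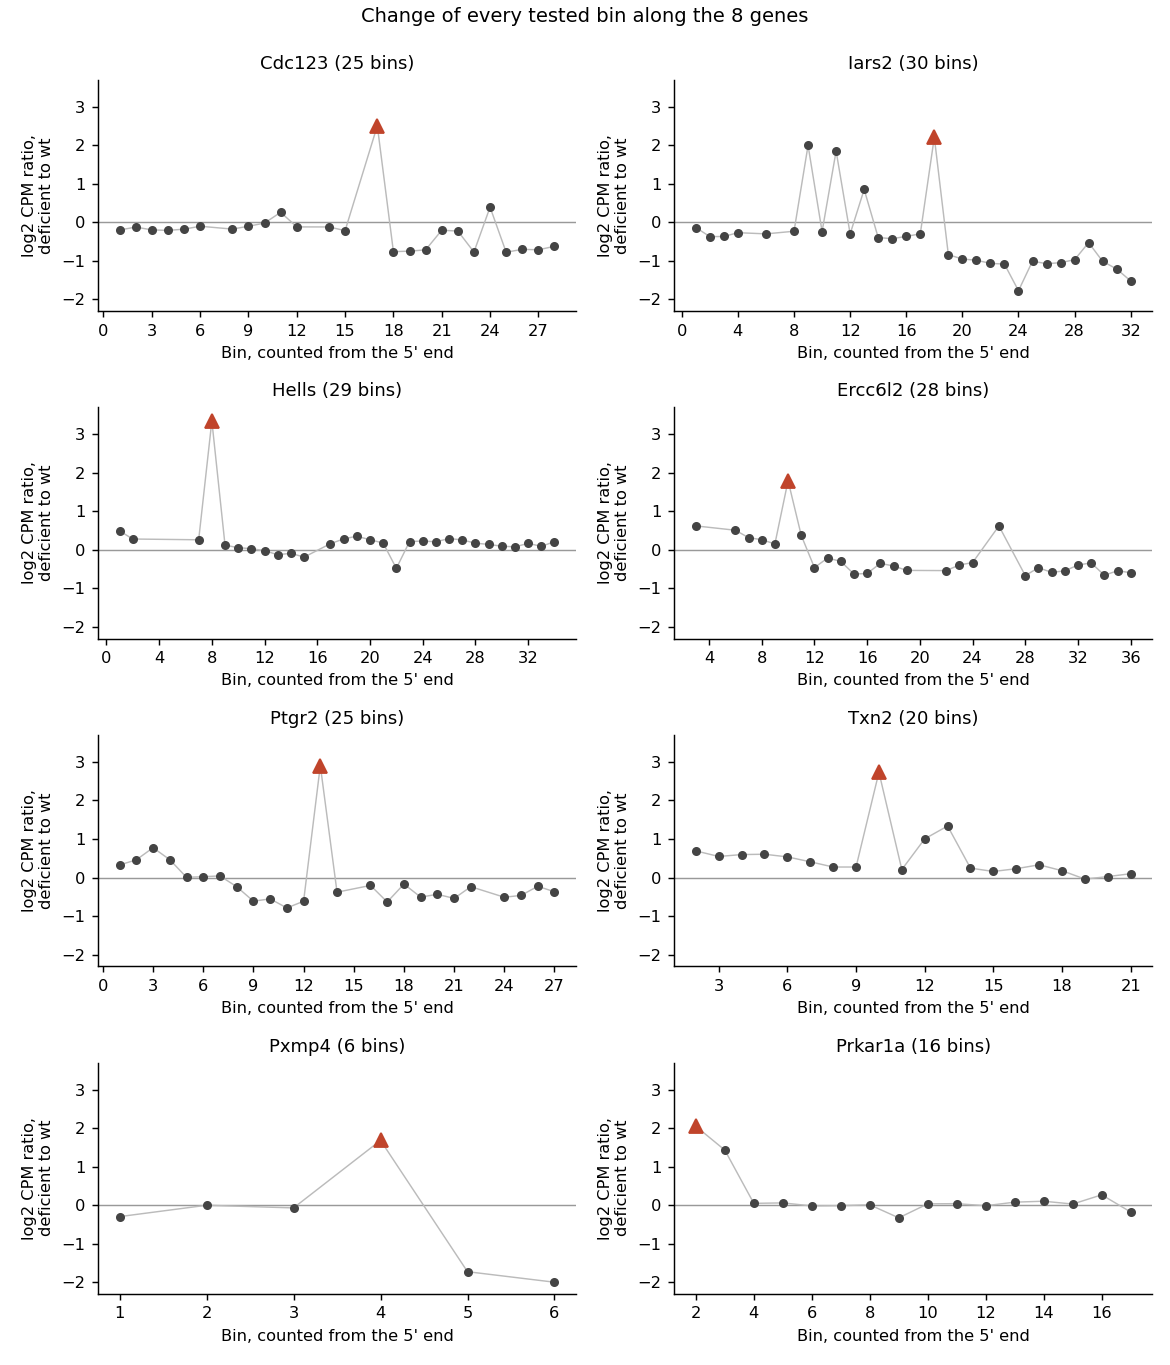
log2 ratio of mean CPM, hnRNP L deficient replicates 2 and 3 to 3 wt libraries, of every tested bin in the 8 genes, with bins counted from the 5′ end of the gene. The gained bin is a triangle and other bins are circles, and in Cdc123, Iars2, Ercc6l2 and Pxmp4 most bins to its right lie lower than those to its left.

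In *Cdc123* the ratio was 0.755, 0.812 and 0.670 in wt (0.746 ± 0.0716, SD, n = 3) and 0.520 and 0.472 in hnRNP L deficient libraries. The 5′ side stood at 127, 118 and 119 CPM against 109 and 112 CPM (log2 ratio -0.14), and the 3′ side at 95.6, 95.9 and 80.0 CPM against 56.4 and 52.8 CPM (log2 ratio -0.73). All 13 tested bins on the 5′ side were above 0 in log2 usage, and 8 of 11 on the 3′ side were below 0. The 3 exceptions, bins 5, 7 and 8, are held only by non-coding transcripts in the annotation.

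In *Iars2* the ratio was 1.05, 1.30 and 1.01 in wt (1.12 ± 0.160, SD, n = 3) and 0.645 and 0.673 in hnRNP L deficient libraries, again with no overlap. The log2 ratio of CPM was -0.30 on the 5′ side and -1.04 on the 3′ side. In *Pxmp4* the ratio was 3.57, 4.09 and 4.65 in wt (4.11 ± 0.541, SD, n = 3) and 1.43 and 0.863 in hnRNP L deficient libraries. The 5′ side of *Pxmp4* stood at 1.999, 3.38 and 2.16 CPM in wt and 2.11 and 2.77 CPM in hnRNP L deficient libraries, which overlapped. The 3′ side stood at 7.14, 13.8 and 10.1 CPM against 3.00 and 2.39 CPM, a log2 ratio of -1.94. The lower level of *Pxmp4* therefore lay in the exons after the early last exon, and the exons before it did not differ beyond the spread of the libraries.

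In *Ercc6l2* the ratio was 5.97, 8.44 and 5.86 in wt (6.76 ± 1.46, SD, n = 3) and 3.72 and 3.55 in hnRNP L deficient libraries. The 2 sides had opposite signs, with a log2 ratio of CPM of 0.35 on the 5′ side and -0.49 on the 3′ side. In *Txn2* the groups were also separate but the step was small, at 2.37, 2.52 and 2.28 against 2.11 and 2.02. In *Hells* (17.4, 20.2 and 16.3 against 16.6 and 15.8) and *Ptgr2* (3.19, 3.50 and 3.65 against 4.04 and 3.47) the groups overlapped.

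The ratio was thus lower in both hnRNP L deficient libraries than in all wt libraries in 5 of the 7 genes, against 12% of 5390 single-gene units whose ratio was taken around their own bin of largest gain. The median log2 change of the ratio was -0.10 over these units, so that a small loss of 3′ relative to 5′ reads was present in general. Among 143 other units whose bin of largest gain was called, 25.9% had separate groups in this direction and the median was -0.17. The changes of -0.59 in *Cdc123*, -0.77 in *Iars2*, -0.89 in *Ercc6l2* and -1.84 in *Pxmp4* lay outside the range of -0.39 to 0.11 that held 80% of all units. The same range of the 143 other units with a called gain was -0.63 to 0.04, and *Cdc123* lay inside it. The genes were chosen on these libraries, and no test was made.

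**Figure D3:**
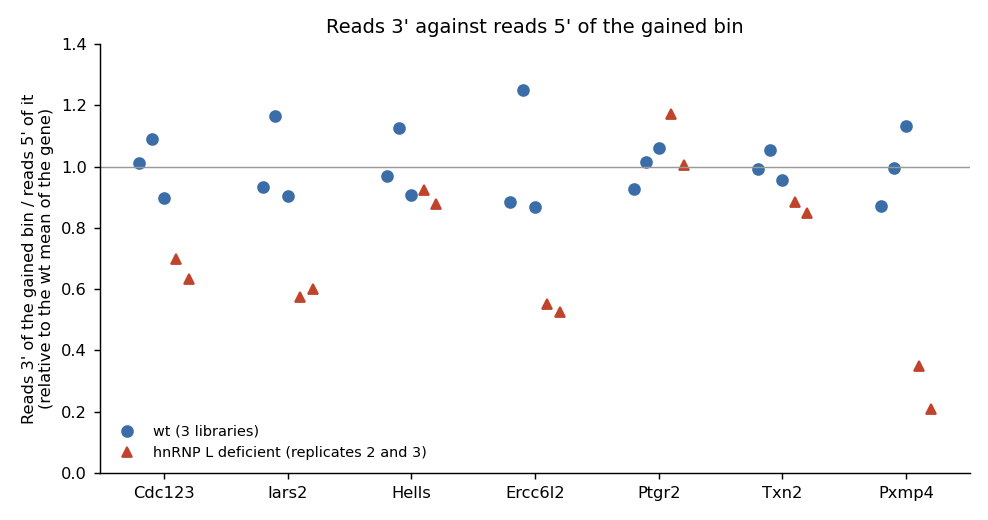
Reads on all bins 3′ of the gained bin divided by reads on all bins 5′ of it, each relative to the wt mean of the gene, in 3 wt libraries (circles) and hnRNP L deficient replicates 2 and 3 (triangles). The triangles lie below all circles in Cdc123, Iars2, Ercc6l2, Txn2 and Pxmp4 and overlap with them in Hells and Ptgr2.

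At the level of whole genes, which used all 6 libraries, 3 of the 8 genes were called lower in hnRNP L deficient cells at an adjusted p-value under 0.05, *Cdc123*, *Iars2* and *Pxmp4*, and 1, *Txn2*, was called higher. The other 4 were not called. Over all 14396 genes tested, 9.85% were called lower and 9.32% higher. A gain of an exon bin thus went with a lower, a higher or an uncalled gene level, and the log2 fold changes had a median of -0.24 in the 8 genes and of -0.03 over all genes tested. Among the 6 genes with placed bins, the 3 called lower were the 3 in which the gained bin is an annotated early last exon, an overlap that was noticed after the values were seen. For *Ercc6l2* and *Txn2* the kind of exon is not known here. All 4 calls were lost when wt replicate 3 or any 1 of the hnRNP L deficient libraries was left out, when the calls over all genes also fell to between 0 and 15 in either direction. Without wt replicate 2, 5 of the 8 genes were called lower.

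*Pxmp4* had the largest change. It stood at 14.3, 24.4 and 19.1 CPM in wt (19.3 ± 5.01, SD, n = 3) and at 8.90, 8.73 and 9.35 CPM in hnRNP L deficient libraries (8.99 ± 0.318, SD, n = 3). All hnRNP L deficient libraries were below all wt libraries, and the level was 46.6% of wt (log2 fold change -1.10, SE 0.20, adjusted p = 0.018). *Iars2* stood at 254, 203 and 257 CPM in wt (238 ± 30.03, SD, n = 3) and at 156, 158 and 156 CPM in hnRNP L deficient libraries (157 ± 1.24, SD, n = 3), or 65.9% of wt (log2 fold change -0.60, SE 0.10, adjusted p = 0.016). *Cdc123* stood at 139.8, 125 and 129 CPM in wt (131 ± 7.49, SD, n = 3) and at 105, 110.3 and 111 CPM in hnRNP L deficient libraries (109 ± 3.37, SD, n = 3). With 82.9% of wt the difference was small but the groups did not overlap (log2 fold change -0.27, SE 0.07, adjusted p = 0.041). *Cdc123* was the one gene of the 4 whose call was also lost without the filter on low counts.

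*Txn2* moved the other way. It stood at 258, 233 and 252 CPM in wt (248 ± 13.4, SD, n = 3) and at 324, 309 and 316 CPM in hnRNP L deficient libraries (316 ± 7.67, SD, n = 3), or 128% of wt (log2 fold change 0.35, SE 0.07, adjusted p = 0.024). The lowest hnRNP L deficient library was above the highest wt library.

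*Ptgr2*, whose gained exon carries a stop codon, stood at 88.7, 66.6 and 68.4 CPM in wt (74.6 ± 12.3, SD, n = 3) and at 58.2, 58.9 and 60.8 CPM in hnRNP L deficient libraries (59.3 ± 1.34, SD, n = 3). The groups did not overlap but the difference missed the threshold (log2 fold change -0.33, SE 0.12, adjusted p = 0.086). In *Ercc6l2* the levels of 82.8, 61.9 and 75.0 CPM in wt and 63.6, 62.4 and 64.2 CPM in hnRNP L deficient libraries overlapped (log2 fold change -0.21, SE 0.11, adjusted p = 0.21). In *Hells* the levels of 253, 204 and 181 CPM overlapped with 256, 260.1 and 252 CPM (log2 fold change 0.27, SE 0.12, adjusted p = 0.16). *Prkar1a* stood at 318, 327 and 327 CPM in wt and at 327, 313 and 317 CPM in hnRNP L deficient libraries (log2 fold change -0.02, SE 0.07, adjusted p = 0.83).

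In 4 genes, *Cdc123*, *Iars2*, *Ptgr2* and *Pxmp4*, all hnRNP L deficient libraries were below all wt libraries, and in 1, *Txn2*, they were above. Over all genes tested 22.7% had separate groups in the one direction and 22.7% in the other. The hnRNP L deficient libraries varied little among themselves in these genes, and the wt libraries varied more. Reads on the gained bin are part of the gene count, so that the gene level understates a loss of the remaining exons. Outside the gained bin the log2 ratio of CPM was -1.33 in *Pxmp4*, -0.64 in *Iars2*, -0.38 in *Ptgr2*, -0.36 in *Cdc123*, -0.35 in *Ercc6l2*, -0.04 in *Prkar1a*, 0.18 in *Hells* and 0.27 in *Txn2*.

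The usage values above rest on hnRNP L deficient replicates 2 and 3. The gene counts of replicate 1, taken alone against the 3 wt libraries, gave log2 fold changes of -1.08 in *Pxmp4*, -0.57 in *Iars2*, -0.33 in *Ptgr2*, -0.29 in *Cdc123*, -0.17 in *Ercc6l2*, 0.05 in *Prkar1a*, 0.30 in *Hells* and 0.42 in *Txn2*. This comparison shares its library and all wt libraries with the one above.

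**Figure D4:**
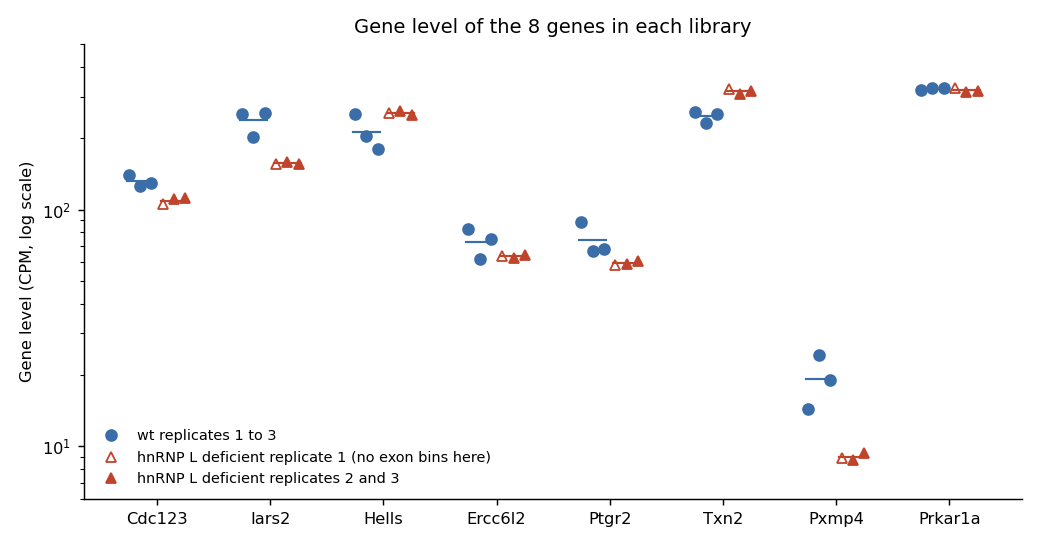
Gene level in CPM (log axis) of the 8 genes in each of the 6 libraries, with wt as circles, hnRNP L deficient replicate 1 as an open triangle, replicates 2 and 3 as filled triangles and group means as bars. All triangles lie below all circles in Cdc123, Iars2, Ptgr2 and Pxmp4 and above them in Txn2.

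The same question was put to all single-gene units that held a called gained bin. Of 199 such genes with a gene-level test, 28 (14.1%) were called lower and 22 (11.1%) higher, and the median log2 fold change was 0.01. The 28 include *Hnrnpl*, the deleted gene. Without the 8 genes described, 25 of 191 (13.1%) were called lower and 21 (11.0%) higher. Among 10643 genes of single-gene units without a called gained bin, 10.6% were called lower and 10.7% higher. The direction of the gene level was therefore nearly balanced among genes with a gained bin. Across the 199 genes, which share all libraries, the size of the largest gain and the log2 fold change of the gene had a Spearman's rho of 0.04 (Pearson's r of 0.25), given as a description.

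**Figure D5:**
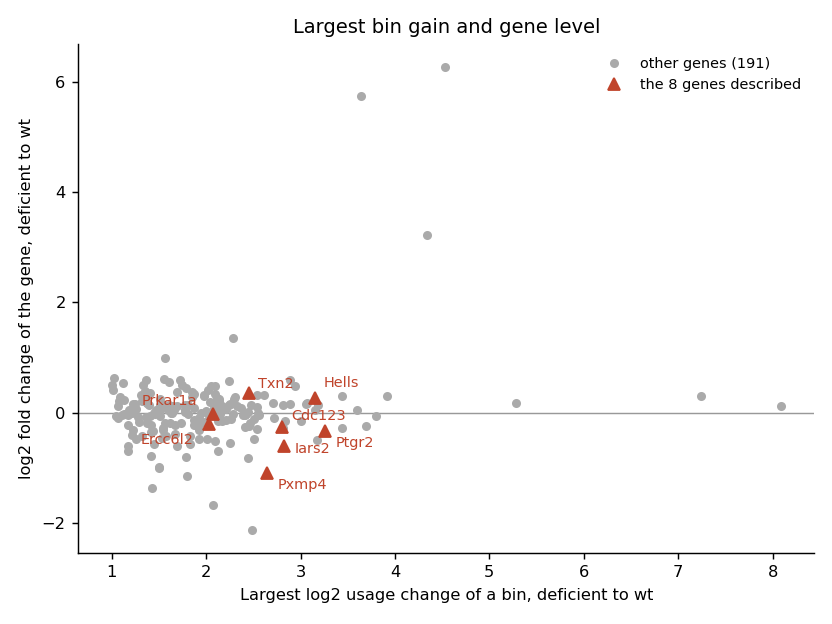
Largest log2 usage change of a bin against the log2 fold change of the gene in 199 single-gene units with a called gained bin, with the 8 genes described as labelled triangles and the other 191 as circles. At gains under 4 circles lie on both sides of 0, and of the 8 genes Pxmp4 lies lowest and Txn2 highest.

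Genes that work with the 8 were compared at gene level from lists chosen by function. Of 77 partner genes tested, 6 were called lower and 16 higher, beside 9.85% and 9.32% of all genes tested. Values that follow in parentheses without a unit are log2 fold changes. All of these calls were lost without wt replicate 3 or without any 1 of the hnRNP L deficient libraries.

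For *Cdc123*, the list held the 8 subunits of eIF2 and of its exchange factor eIF2B. All 5 eIF2B subunits were called higher, as in *Eif2b4* (mean of 75.8 CPM in wt and 104 CPM in hnRNP L deficient libraries, log2 fold change 0.46, adjusted p = 0.015), *Eif2b2* (log2 fold change 0.43, adjusted p = 0.019) and *Eif2b5* (0.45, adjusted p = 0.025), while the 3 eIF2 subunits were not called. *Cdc123* was thus lower while the exchange factor's subunits were higher. For *Iars2*, 3 of the 19 other mitochondrial tRNA synthetases and amidotransferase subunits were called higher, *Qrsl1* (log2 fold change 0.65, adjusted p = 0.014), *Tars2* (0.45, adjusted p = 0.019) and *Mars2* (0.56, adjusted p = 0.044), and none was called lower. For *Txn2*, 1 of 6 genes of mitochondrial redox defence was called higher, the superoxide dismutase *Sod2* (0.48, adjusted p = 0.046), and neither the glutaredoxin *Glrx5* (0.23, adjusted p = 0.12) nor the peroxiredoxin *Prdx3* (0.22, adjusted p = 0.16) passed.

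For *Hells*, 1 of 7 genes of its complex and of DNA methylation was called, the de novo methyltransferase *Dnmt3a*, which was lower (mean of 101 CPM against 62.6 CPM, log2 fold change -0.68, adjusted p = 0.017). *Cdca7l* (-0.23, adjusted p = 0.074) and *Dnmt3b* (-0.34, adjusted p = 0.13) did not pass. For *Ercc6l2*, 3 of 9 genes of its helicase family and of nucleotide excision repair were called higher, the endonuclease *Ercc5* (0.68, adjusted p = 0.012), *Ercc8* (0.57, adjusted p = 0.031) and the helicase *Ercc6* (0.22, adjusted p = 0.044). For *Prkar1a*, 3 of 8 genes of PKA were called lower, among them the inhibitor *Pkib* (mean of 2.74 CPM against 0.626 CPM, -2.13, adjusted p = 0.013) and the catalytic subunit *Prkaca* (-0.31, adjusted p = 0.028), and 1 was called higher, the regulatory subunit *Prkar2a* (0.38, adjusted p = 0.037). The subunits around *Prkar1a* therefore went in both directions. *Pkib* itself held a called gained bin, as did some other partner genes.

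For *Ptgr2*, 1 of 5 genes was called lower, the related reductase *Ptgr1* (-0.63, adjusted p = 0.018), and 1 higher, the synthase *Ptges2* (0.50, adjusted p = 0.021). The cyclooxygenase *Ptgs1* had a log2 fold change of -1.61 that did not pass (adjusted p = 0.14). For *Pxmp4*, the import factor *Pex14* of the peroxisomal membrane was called higher (0.50, adjusted p = 0.017).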

How the data were processed

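RNA of sorted Lin-cKit+ FL cells was sequenced by the authors, who aligned reads to GRCm38 with Tophat (2.0.10 in the submitters' processing notes) and deposited raw counts per Ensembl gene (HTSeq) and per exon bin. The Ensembl release and counting options are not given in the sources used here.

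Here, deposited counts were tested with edgeR 4.0.16 (R 4.3.3) using TMM, its default filter (14396 of 38293 genes) and the robust quasi-likelihood test with Benjamini-Hochberg adjustment over all genes. Standard errors are log2 fold changes divided by the root of F. Usage was fitted with diffSpliceDGE on bins that averaged 10 reads or more, and bins were called on its p-values without adjustment. DEXSeq was not used.

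Bins were placed by flattening GENCODE M21 exons, whose bin numbers were the same for 23788 of 34765 single-gene units. With bins counted upward by coordinate, length and reads of bins had a median Spearman's rho of 0.44 on both strands, and with the order turned of -0.11 and -0.12.

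Members and lists were chosen with earlier results of these data known. The named genes are the 8 members, their gained bins and neighbours, *Hnrnpl*, and per partner list up to 3 genes of smallest adjusted p. Some partner genes of *Pxmp4* are not reported here. The steps were tested on simulated data. Alternatives were DESeq2 1.42.0, limma 3.58.1, other factors and filters, and leaving out each library.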

Additional observations from a re-analysis of the deposited data

Results flagged for a closer look

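Of the bins of the 8 genes, 22 were below the minimum of 10 reads. Of these, 2 lay at or under 3 reads in all 3 wt libraries and above 3 reads in both hnRNP L deficient libraries. They were picked by this pattern and were not tested on their own. Their reads are part of sums given above, of bins 1 to 3 in *Prkar1a* and of the 5′ side in *Ercc6l2*. Bin 1 of *Prkar1a*, the most upstream first exon, had 0 reads in wt and 14 and 12 reads in hnRNP L deficient libraries, a mean of 0.0992 CPM. Bin 4 of *Ercc6l2* had 1, 0 and 0 reads in wt and 6 and 17 reads in hnRNP L deficient libraries, a mean of 0.0840 CPM. No error was estimated for these values.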

How the results depend on the processing

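The log2 usage change of the gained bins moved by less than the spread between libraries under all 71 alternatives that gave a value, from 1.86 to 2.38 in *Ercc6l2* and from 3.14 to 3.48 in *Ptgr2*. Gained bin 2 of *Prkar1a* was not tested at a mean of at least 50 reads, where the bin of largest gain stayed the same in 7 genes. The bin of largest gain also stayed the same in 7 of the 8 genes without wt replicate 3, and in 8 under the other alternative fits of the bins. Outside the gained bin no value moved by more than the spread when its neighbours were left out as well. At gene level the sign held in all alternatives except in *Prkar1a*, whose log2 fold change of -0.02 became 0.000375 without the filter, -0.0378 to 0.0107 with 1 library left out (above 0 without hnRNP L deficient replicate 2) and 0.0479 with hnRNP L deficient replicate 1 alone. Calls depended on the libraries. Leaving out 1 library gave 0 to 2479 genes called lower and 5 to 2312 called higher, 0 to 5 members lower and 0 to 2 higher, and 0 to 6 partner genes lower and 0 to 23 higher. hnRNP L deficient replicate 1 alone gave 0 genes, members and partner genes called in either direction, with that library assumed to vary like wt. DESeq2 called 2217 genes lower. Bins called gained were 569 with limma, 149 at a mean of at least 50 reads and 61 to 568 with 1 library left out, and bins called lost were 56 to 272 with 1 library left out. The cause was not tested. No paired analysis was possible because the labels give embryo numbers and no replicate numbers (those used here follow the order of the samples). Across the groups, only 1 wt and 1 hnRNP L deficient embryo share the first part of a number. Within the deficient group, replicates 2 and 3, the only ones with exon bin counts here, also share one. The labels do not say whether this marks a litter.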

Other observations

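The same contrast chose the 8 genes, so their ranks are a description and nothing is read from them. Ordered by p-value, the gained bin of *Cdc123* came first, followed by those of *Iars2*, *Hells*, *Ercc6l2* and then *Ptgr2*. These were the first 5 among single-gene units with a gain over 2-fold. In that order *Txn2* was 7 and *Pxmp4* was 20, and *Prkar1a* was not among the first 30. Over all 176996 tested bins, merged units included, the gained bin of *Prkar1a* was 127 by p-value, and by size of gain the 8 bins were between 22 (*Ptgr2*) and 157 (*Ercc6l2*). The units between them, named here after their values were seen, include *Eif2b3*, a subunit of the eIF2B complex listed beside *Cdc123*, whose bin 16 had a log2 usage change of 1.55, and the mitochondrial ribosomal protein gene *Mrpl15*, whose bin 7 had the same value. *Hnrnpl* itself was 19 in the order, with a log2 usage change of 1.18 in bin 23.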
